A study of Mus musculus with 47 samples.

Results

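Thymic DN3 cells taken straight from the mouse were compared with DN2b cells grown in culture, both with Bcl11b intact. Of 47 RNA-seq libraries of mouse T-cell precursors, 6 entered the comparison, 3 on each side, chosen by their labels alone. The DN3 libraries came from sorted thymocytes that were not cultured. Replicate 1 carried LckCre on a B6 background, in which Cre is driven by a promoter active in thymocytes, and its title names a pair of dates. Replicate 2 came from the PLBD line, homozygous for floxed Bcl11b with a Cre-ERT2 transgene expressed ubiquitously from ROSA26, with no deletion induced. Replicate 3 carried the CreERT2 transgene with wild-type Bcl11b and no deletion (titled ERTII), and shares its title date with replicate 2. The DN2b libraries came from B6 fetal liver precursors of stage E13.5, transduced with a Cre retrovirus and grown on OP9-DL1 stroma, which presents the Notch ligand Delta-like 1, with 5 ng/ml IL-7 and Flt3L. Replicates 1 and 2 were harvested on day 12 and replicate 3 on day 9.5. The protocol gives their sort as CD45+ CD25+ lineage-negative cells with intermediate Kit. Stage, tissue of origin, fetal or thymic age, culture, mouse line and the form of Cre all differed together between the groups and cannot be told apart. For reference, values are also given for 2 libraries of thymic DN3 cells with the CreERT2 transgene and wild-type Bcl11b, treated with 100 nM 4-OH tamoxifen and cultured for 3 or 4 days on OP9-DL4, and for 7 other cultured DN2b libraries with Bcl11b intact (2 with Cre on DL4, 3 with reduced IL-7 and 2 normal libraries without Cre, of which 1 is titled DN3 but staged DN2b). Whether the libraries of a group came from separate animals or cultures is not stated for all of them, so p-values measure the spread between these libraries.

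T-cell precursors pass through double-negative stages that carry neither CD4 nor CD8. In DN2b they commit to the T lineage as the zinc-finger factor Bcl11b is switched on and progenitor regulators are shut down. In DN3 they stop dividing for a time, rearrange the T-cell receptor (TCR) beta gene with the recombinase Rag1 and Rag2, and test its product by pairing it with the pre-TCR alpha chain, encoded by Ptcra. Notch signals from the stroma carry cells to that checkpoint, and the E proteins, held in check by Id proteins, drive many of the genes used there.

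Expression was given in FPKM, a level per transcript length and mapped fragments, after a batch adjustment by the authors, with a floor of 0.1 FPKM that is read as not detected. Column totals of the 6 libraries ran from 581205 to 921302 FPKM, between 0.47% and 3.59% of genes stood at the floor, and sequencing depth is unknown. DN2b replicate 3 stood apart in that 4 entries (Gm12563, Gm15662, Gm12913 and Lars2) took 26.4% of its total, against 1.88% to 9.47% in the other 5 libraries. Pearson correlations of log2(FPKM + 1) across all 17754 entries were 0.968 to 0.975 within DN3, 0.964 to 0.975 within DN2b and 0.924 to 0.967 between the groups.

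A set of genes went against the double-negative label in the cultured cells and was stepped rather than graded. Cd4 stood at 59.4 and 59.2 FPKM in DN2b replicates 1 and 2, at 58.8 FPKM in a separate empty-vector DN2b library, and at 36.7 FPKM in DN2b replicate 3. It was 18.0 FPKM in DN3 replicate 1 and at the floor in DN3 replicates 2 and 3. Across 5 knockout libraries on DL1 outside the comparison Cd4 lay between 29.2 and 29.8 FPKM. These 5 were picked from a larger set of such libraries without a stated rule, so the narrow range holds for them only. Cd8a (61.9, 61.7 and 38.7 FPKM in DN2b; 20.3 FPKM in DN3 replicate 1 and the floor in the other 2) and Cd8b1 (98.3, 97.9 and 61.8 FPKM; 33.2 FPKM and the floor) had the same steps. The cause of these steps was not tested. Of 157 tested genes with day-12 DN2b values this close, the highest at most 5% above the lowest over the 2 replicates and the empty-vector library, 25 were called and 18 of those were lower in DN3. Gzma, a granzyme gene singled out after its values were seen, was split in another way, at 789 FPKM in DN3 replicate 1, at the floor in DN3 replicates 2 and 3, and at 717, 1504 and 1291 FPKM in DN2b (adjusted p = 0.0768, not called).

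**Figure D1:**
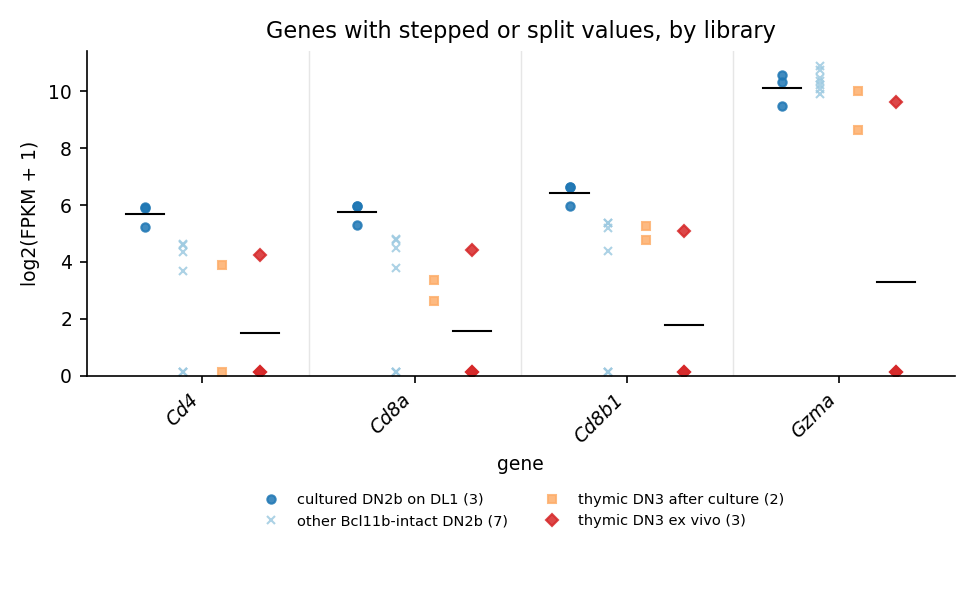
Cd4, Cd8a, Cd8b1 and Gzma in single libraries, as log2(FPKM + 1) on the vertical axis; each symbol is 1 library and black bars are means of the 3 DN2b DL1 and the 3 ex vivo DN3 libraries. DN3 replicates 2 and 3 sit at the floor for all 4 genes while replicate 1 does not, and the DN2b values of Cd4, Cd8a and Cd8b1 fall at a few shared heights.

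With limma on log2(FPKM + 1), 837 of 13133 tested genes (6.37%) were called at an adjusted p under 0.05, 467 of them higher in DN3 (3.56%) and 370 lower (2.82%). A difference of 2-fold or more was estimated for 416 of the higher and 338 of the lower genes. In all 837 the groups did not overlap, which was true of 24.1% of tested genes. All 3 DN3 libraries also lay beyond all 7 other DN2b libraries for 352 of the 467 higher and 214 of the 370 lower genes, as they did for 11.8% of tested genes. The median difference of all tested genes was 0.14 on the log2 scale. Scaling the libraries by their median ratio moved it by 0.15, to -0.01, and turned the split to 358 higher and 471 lower, so that the share of calls higher in DN3 went from 55.8% to 43.2%. Leaving out 1 library left between 361 and 1132 calls. The counts were 486 without DN3 replicate 3, 361 without DN2b replicate 2, and 461 without DN2b replicate 3, the library with the dominant entries. Among the 4 libraries titled August to September, 2 on each side, 181 genes were called, and with title period as a covariate 665. Set against the 2 normal DN2b libraries without Cre, only 33 genes were called, and 13 of the 837 differences had the other sign. Those 2 libraries correlated at 0.948 with each other across the tested genes. Over the same genes the 2 cultured DN3 libraries correlated at 0.955, so these values are not comparable with those over all entries above.

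**Figure D2:**
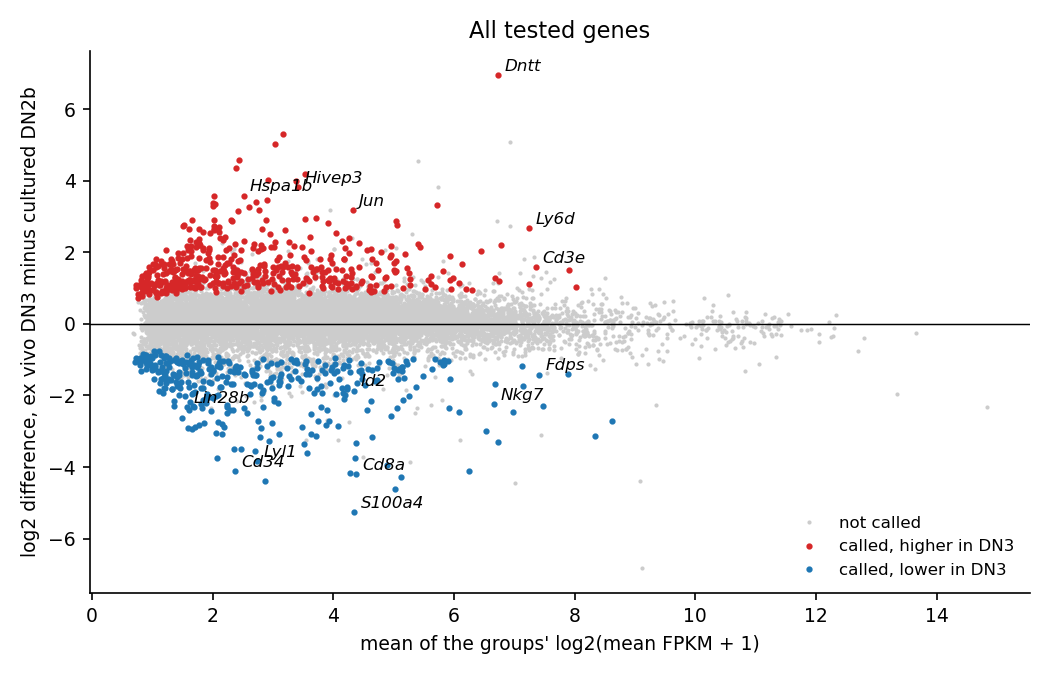
Log2 difference of ex vivo DN3 minus cultured DN2b (vertical) against mean expression of the groups (horizontal, log2 scale) for all 13133 tested genes. Red points are the 467 called genes higher in DN3 and blue points the 370 lower; Dntt is the highest of the named genes and S100a4 the lowest called one.

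Of the 3 defining DN3 markers, Cd3e was called and Ptcra and Rag1 were not. Cd3e, a signalling chain of the TCR and pre-TCR complex, was 265, 260 and 323 FPKM in DN3 and 114, 72.2 and 97.0 FPKM in DN2b. Every DN3 library was above every DN2b library, and the log2 difference was 1.59 (SE 0.26, adjusted p = 0.0063), called in each of the 6 fits that left out 1 library (highest adjusted p = 0.0399). Ptcra was 139, 114 and 177 FPKM in DN3 and 104, 41.1 and 59.9 FPKM in DN2b. Its groups did not overlap either, but the difference of 1.14 (SE 0.34) was not called (adjusted p = 0.0836). Rag1 was 267, 78.8 and 67.3 FPKM in DN3 and 417, 131 and 111 FPKM in DN2b, with overlapping groups and a difference of -0.70 (SE 0.58, adjusted p = 0.558). All 3 markers were present in every DN3 library, and in every DN2b library as well. Bcl11b itself was 105, 133 and 100 FPKM in DN3, above 84.4, 48.1 and 54.1 FPKM in DN2b, a difference of 0.88 that was not called (adjusted p = 0.0913).

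The promoter of Ptcra is shown because it holds 3 copies of CAGCTG, a form of the E box that E proteins bind. Any link of these copies to the levels of Ptcra, E proteins or Id proteins was not tested. That of Dntt is shown because the gene had the largest difference measured, and that of Hspa1b because it is the heat-shock gene with the largest difference and holds GAANNTTC, the core of the heat-shock element. Each runs 5′ to 3′ from 250 bases before to 50 bases after the start of the gene in RefSeq (build GRCm38.p6), with matches in capitals. The positions are chr17:46763663-46763962 on the minus strand for Ptcra, chr19:41029025-41029324 on the plus strand for Dntt and chr17:34959189-34959488 on the minus strand for Hspa1b.
Ptcra: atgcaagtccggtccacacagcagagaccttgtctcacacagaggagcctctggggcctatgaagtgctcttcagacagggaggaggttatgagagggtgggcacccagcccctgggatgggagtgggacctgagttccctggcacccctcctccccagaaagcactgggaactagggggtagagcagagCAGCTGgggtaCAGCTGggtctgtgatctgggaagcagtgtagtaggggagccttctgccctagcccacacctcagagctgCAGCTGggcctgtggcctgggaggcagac
Dntt: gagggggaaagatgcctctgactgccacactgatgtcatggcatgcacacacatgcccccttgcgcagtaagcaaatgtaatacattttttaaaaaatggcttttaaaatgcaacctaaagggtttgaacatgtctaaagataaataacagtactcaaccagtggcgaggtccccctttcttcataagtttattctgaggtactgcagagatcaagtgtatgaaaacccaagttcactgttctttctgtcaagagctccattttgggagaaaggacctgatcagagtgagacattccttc
Hspa1b: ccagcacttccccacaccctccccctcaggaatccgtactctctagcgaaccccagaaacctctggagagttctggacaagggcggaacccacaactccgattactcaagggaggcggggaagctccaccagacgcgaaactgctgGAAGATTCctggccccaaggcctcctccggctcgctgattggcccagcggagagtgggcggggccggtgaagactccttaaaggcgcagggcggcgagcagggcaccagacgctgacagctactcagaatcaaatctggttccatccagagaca
Both motifs were searched on both strands, and neither overlaps the other. In Ptcra the matches start at positions -60, -49 and 21 from the start of the gene, and in Hspa1b the match starts at -104. CAGCTG is in 16.3% of 32851 promoters of this length, 3 or more copies are in 0.21% of them, and GAANNTTC is in 7.86%. The Dntt window holds neither set of letters. A match describes the sequence and is not a measured binding site.

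Among the genes of V(D)J recombination and end joining, 1 of 11 was called (9.09%, beside 6.37% of all tested genes). It had the largest difference of any called gene. Dntt encodes terminal deoxynucleotidyl transferase, which adds untemplated bases at the joints of rearranged receptor genes. It was 686, 890 and 884 FPKM in DN3 and 7.41, 0.1 and 30.4 FPKM in DN2b, and the log2 difference was 6.94 (SE 0.91, adjusted p = 0.00191). The DN3 libraries were all far above the DN2b libraries, of which 1 was at the floor, and the call was kept in all 6 fits that left out 1 library. The 7 other DN2b libraries ran from the floor to 453 FPKM, the highest being the normal library titled DN3. Rag2, the partner of Rag1, was 33.0, 21.0 and 22.1 FPKM in DN3 against 62.4, 30.7 and 22.3 FPKM in DN2b (difference -0.48, adjusted p = 0.516). The median difference of the 11 genes was 0.35.

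Of 20 genes of the TCR complex and its proximal signalling, Cd3e rose and Txk fell, and the median difference was 0.37. That is 10% called, beside 6.37% of all tested genes. Txk, a Tec-family kinase, was 9.53, 4.02 and 3.28 FPKM in DN3 against 14.5, 19.2 and 19.1 FPKM in DN2b, a difference of -1.60 (SE 0.35, adjusted p = 0.0237). That call was lost when DN2b replicate 2 (adjusted p = 0.0895) was left out, as also without DN2b replicate 3, DN3 replicate 3 or DN3 replicate 2. Of the 20 differences 15 were positive, where the median of all tested genes was itself 0.14, and median-ratio scaling took the list median to 0.20. Groups did not overlap for 8 members, Cd3e and Txk included, as was true of 24.1% of tested genes.

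**Figure D3:**
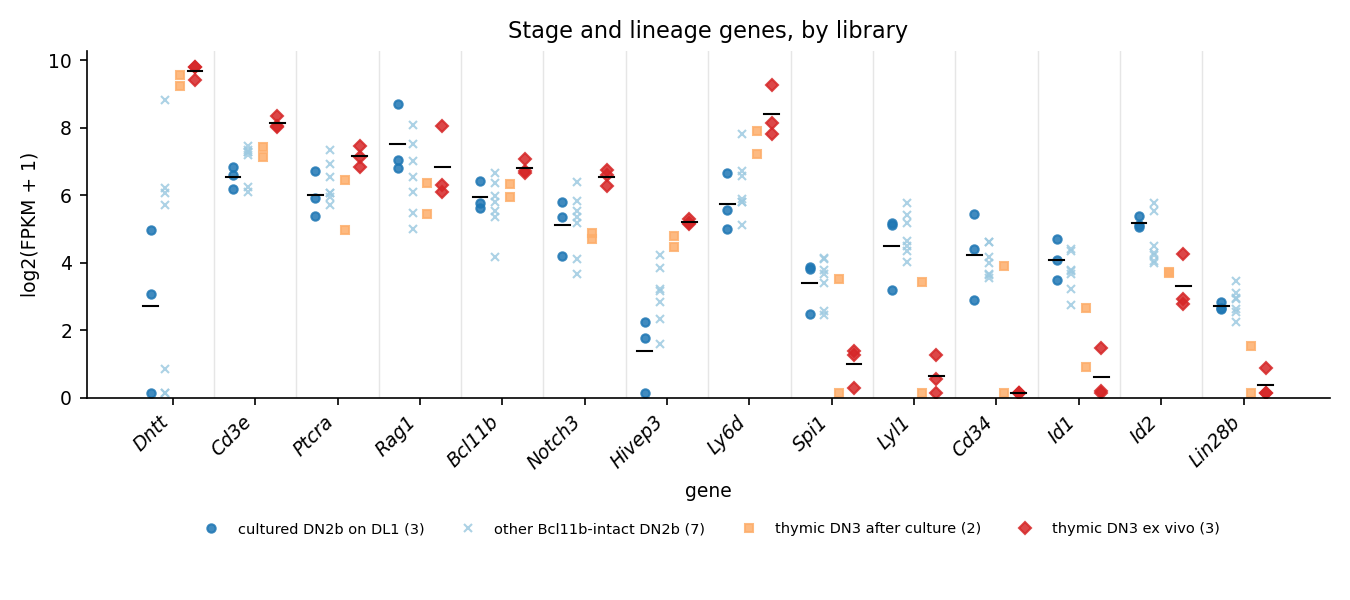
Stage and lineage genes in single libraries, as log2(FPKM + 1); each symbol is 1 library, and black bars are means of the 3 cultured DN2b DL1 (blue) and 3 ex vivo DN3 libraries (red). Dntt, Cd3e, Hivep3 and Ly6d lie higher in every ex vivo DN3 library than in every DN2b DL1 library, Spi1, Lyl1, Cd34, Id1, Id2 and Lin28b lie lower, and Rag1 overlaps.

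Among 21 entries for transcription factors of the T lineage, 2 rose and 1 fell (median difference 0.19). Hivep3, a zinc-finger factor, was 34.9, 38.2 and 34.4 FPKM in DN3 and 2.41, 0.1 and 3.73 FPKM in DN2b, a difference of 3.82 (SE 0.46, adjusted p = 0.0012). The DN3 values lay close together and above the highest of the 7 other DN2b libraries, 17.7 FPKM. Spib, an Ets-family factor active at DN3, was 14.1, 24.3 and 19.1 FPKM against 10.2, 4.20 and 7.53 FPKM (difference 1.32, adjusted p = 0.042). Runx3, which represses Cd4 in the CD8 lineage and is also active in innate lymphocytes, was 25.4, 13.55 and 23.3 FPKM against 52.0, 69.3 and 56.2 FPKM (difference -1.50, adjusted p = 0.0112). Without DN2b replicate 2 neither Spib (adjusted p = 0.159) nor Runx3 (adjusted p = 0.0562) was called, and of the 6 fits that left out 1 library Spib was called in 1, that without DN2b replicate 1. Median-ratio scaling also ended the call of Spib (adjusted p = 0.0632). The general T-lineage factors Gata3 (difference -0.02), Tcf7 (0.61), Lef1 (1.76) and Ets1 (1.14) were not called. Gata3 stood between 38.6 and 56.0 FPKM in all 6 libraries, whereas Lef1 reached from 5.44 to 72.8 FPKM within DN2b alone.

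Of the Id proteins, which block E proteins from binding DNA, Id1 and Id2 were lower in DN3, while Id3 and the E proteins were not called. Id1 was 1.77, 0.107 and 0.149 FPKM in DN3 and 10.3, 16.0 and 25.0 FPKM in DN2b, a difference of -3.49 (SE 0.41, adjusted p = 0.00108), kept in all 6 fits that left out 1 library. Id2 was 18.0, 6.65 and 5.91 FPKM against 33.6, 41.2 and 32.3 FPKM (difference -1.86, adjusted p = 0.0149). Its groups did not overlap, but it was not called without DN2b replicate 2 (adjusted p = 0.0642). Id3, which follows pre-TCR signals, overlapped (difference -0.58, adjusted p = 0.406), and its difference turned to 0.66 against DN2b on DL4 and 0.64 against normal DN2b. The E proteins Tcf3 (difference 0.08), Tcf12 (0.37) and Tcf4 (0.21) had adjusted p-values of 0.63 or above, so that 2 of the 6 listed genes fell.

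Notch receptors and targets leaned higher in DN3, with a median difference of 0.58 over 13 tested genes, beside 0.14 for all tested genes. Median-ratio scaling took the list median to 0.46. Of the 13 genes 1 was called (7.69%, beside 6.37% of all tested genes), and none was against normal DN2b. Myc, a Notch target and growth regulator, was 156, 154 and 172 FPKM in DN3 and 78.4, 70.0 and 60.8 FPKM in DN2b, a difference of 1.20 (SE 0.23, adjusted p = 0.0123; 0.0574 without DN2b replicate 2). Notch3, whose receptor is prominent at DN3, was 76.0, 106 and 95.6 FPKM against 55.0, 17.4 and 39.7 FPKM; the groups did not overlap and the adjusted p was 0.0516. Notch1 (difference 1.24, adjusted p = 0.197) overlapped, its DN2b values reaching from 47.1 to 239 FPKM. The target Dtx1 had a difference of 0.64 (adjusted p = 0.317) and Hes1 of 0.39 (adjusted p = 0.426). Against normal DN2b the differences of Notch1, Dtx1 and Hes1 turned to -0.016, -0.25 and -0.16. Nrarp, a feedback inhibitor, was 5.44 FPKM and the floor in the other 2 DN3 libraries, against 3.56, 9.03 and 13.7 FPKM (adjusted p = 0.0877).

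Of 14 tested regulators of stem and progenitor cells 5 fell in DN3 and none rose, with a median difference of -0.71. Leaving out 1 library gave 4 or 5 calls. Cd34, a surface sialomucin of progenitors, was at the floor in all 3 DN3 libraries and 6.42, 42.4 and 20.3 FPKM in DN2b (adjusted p = 0.00143). Lyl1, a helix-loop-helix factor of multipotent cells, was 0.1, 0.479 and 1.42 FPKM against 8.15, 34.1 and 35.1 FPKM (difference -3.84, adjusted p = 0.00214). Spi1, which encodes PU.1 and is shut off at commitment, was 1.41, 0.233 and 1.65 FPKM against 4.63, 13.7 and 13.0 FPKM (difference -2.40, adjusted p = 0.00844). DN2b replicate 1 was the lowest of the DN2b libraries for each of these 3 genes and still above all DN3 libraries. Meis1, a homeobox partner of Hox proteins, fell by 2.01 on the log2 scale (adjusted p = 0.00358). Flt3, the receptor for Flt3L, which was in the culture medium, fell by 1.33 from levels near 2 FPKM (adjusted p = 0.0133), and was not called without DN2b replicate 3 (adjusted p = 0.0639) or DN3 replicate 3.

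The surface genes Kit, Cd44 and Il2ra, which define the stages by flow cytometry, were not called. The groups did not overlap for Kit and Cd44, as was true of 24.1% of tested genes, and overlapped for Il2ra. Kit was 14.7, 24.9 and 22.5 FPKM in DN3 against 38.0, 31.7 and 25.5 FPKM (difference -0.61, adjusted p = 0.254), Cd44 had a difference of -0.88 (adjusted p = 0.0809) and Il2ra, which encodes CD25, of -0.42 (adjusted p = 0.534). Of the 15 stage and surface markers 1 rose and 2 fell. Ly6d, a lymphoid-progenitor surface protein, was 284, 225 and 621 FPKM in DN3 and 46.8, 30.9 and 101 FPKM in DN2b, a difference of 2.67 (SE 0.47, adjusted p = 0.00864). Ly6a, which encodes Sca-1, was 13.4, 20.9 and 22.1 FPKM against 68.1, 40.9 and 59.6 FPKM (difference -1.53, adjusted p = 0.0112), and the other lower gene was Flt3. Ly6d and Ly6a were each called in all 6 fits that left out 1 library.

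The genes with the largest positive differences were low in the 3 DN2b DL1 libraries, but not all were silent in the 7 other DN2b libraries. Leaving Dntt aside, the highest value among those 7 ran from 3.00 FPKM for As3mt to 20.4 FPKM for Camkv. All 3 DN3 libraries lay above the 7 for each gene named in this paragraph. After Dntt came Epb4.1l4b, which encodes a band 4.1 family protein and was 41.6, 73.5 and 51.6 FPKM in DN3 and 0.1, 0.46 and 0.701 FPKM in DN2b (difference 5.30, SE 0.30, adjusted p = 2.09e-05). Ly6k, a surface protein related to Ly6d, was 34.6, 66.2 and 35.1 FPKM against 0.1, 0.1 and 1.11 FPKM (difference 5.02, adjusted p = 0.000128). Fam163b was 24.2, 24.8 and 27.1 FPKM in DN3 and listed at the floor in all 3 DN2b libraries (adjusted p = 1.89e-05), 1 of 3 genes called higher with that pattern. Hmgn3, a nucleosome-binding protein, was 18.6, 26.0 and 23.3 FPKM against at most 0.261 FPKM (difference 4.35). Cox6b2, a cytochrome oxidase subunit best known from testis, Rab11fip4, a Rab11 partner in vesicle traffic, and Camkv, a kinase-like protein, had differences of 4.18, 4.01 and 4.00. As3mt, an arsenic methyltransferase, and Galnt6, which starts mucin-type glycosylation, had differences of 3.56 and 3.47. All of these were called in each of the 6 fits that left out 1 library.

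At the other end stood S100a4, a calcium-binding protein of motile cells, with 5.41 FPKM and the floor in the other 2 DN3 libraries against 8.92, 191 and 229 FPKM in DN2b (difference -5.26, SE 1.08, adjusted p = 0.0186). DN2b replicate 1 was close to the highest DN3 library, and the call was lost without DN2b replicate 3 (adjusted p = 0.0845), DN2b replicate 2 or DN3 replicate 3. Lst1, a leukocyte-specific transcript, was 0.1, 0.1 and 1.44 FPKM against 13.0, 47.1 and 40.3 FPKM (difference -4.40, adjusted p = 0.000926). 5830411N06Rik was 17.3, 34.0 and 5.96 FPKM against 304, 318 and 240 FPKM (difference -4.12, adjusted p = 0.00104). Ctla2b, related to the propeptide of cathepsins, was at the floor in all DN3 libraries and 9.16, 25.2 and 10.9 FPKM in DN2b (adjusted p = 0.000347). Eif4ebp1, a brake on cap-dependent translation, fell by 3.75 on the log2 scale (adjusted p = 0.0051), and these 4 genes were called in each of the 6 fits that left out 1 library. Akr1c12, an aldo-keto reductase (difference -4.28, adjusted p = 0.0125; 0.0511 without DN2b replicate 2), and Cd52, a small surface glycoprotein of lymphocytes (difference -3.94, adjusted p = 0.0167; 0.077 without DN2b replicate 3 and also lost without DN2b replicate 2), completed the list beside Cd34, Lyl1 and the stepped genes Cd4, Cd8a and Cd8b1. Of the 370 lower genes, 66 were at the floor in both DN3 replicates 2 and 3, and 27 of those reached 1 FPKM or more in DN3 replicate 1.

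The lower lists held genes of other lymphoid lineages. Of 13 tested genes of innate lymphoid and NK cells 6 fell and none rose, with a median difference of -1.43. Nkg7, a cytotoxic-granule protein, was 20.9, 46.8 and 73.8 FPKM in DN3 and 128, 223 and 282 FPKM in DN2b (difference -2.24, adjusted p = 0.0147). It was not called without DN2b replicate 3 (adjusted p = 0.0694) or DN2b replicate 2. Cd7 was 3.71, 5.95 and 6.24 FPKM against 17.9, 36.1 and 49.0 FPKM (difference -2.40, adjusted p = 0.00385). It was called in all 6 fits that left out 1 library. Over all alternatives its difference shrank to as little as -0.16 and its adjusted p reached 0.979. The 7 other DN2b libraries ran from the floor to 46.8 FPKM for Cd7. Zbtb16, which encodes the PLZF zinc-finger factor of innate-like lymphocytes, was 7.04, 1.76 and 1.80 FPKM against 13.6, 11.2 and 13.45 FPKM (difference -1.79, adjusted p = 0.025). That call was lost in 4 of the 6 fits that left out 1 library (adjusted p up to 0.0887), the difference turned to 0.64 against normal DN2b, and the 7 other DN2b libraries ran from the floor to 21.1 FPKM with a median of 1.51 FPKM. Nfil3, a factor of innate lymphoid development, fell by 1.23 (adjusted p = 0.0374). It was called in 1 of the 6 fits that left out 1 library (adjusted p up to 0.137), and not under quantile normalization (adjusted p = 0.0529). Id2 is also on this list, and the sixth was Rora, named after its values were seen (difference -1.15, adjusted p = 0.0496). Of 5 tested genes of gamma-delta and type 17 cells 2 fell. Cd163l1, a scavenger receptor of gamma-delta cells, was 43.5, 24.4 and 17.6 FPKM against 150, 133 and 176 FPKM (difference -2.47, adjusted p = 0.00178). The other was the factor Maf (difference -1.69, adjusted p = 0.016). Listed genes with no entry under their listed symbol, such as Scart2, were not counted, and entries under other symbols may have been missed. Summed over its listed genes the innate lymphoid set was 898, 92.8 and 123 FPKM in DN3 against 956, 1916 and 1801 FPKM in DN2b, the high DN3 value being the LckCre library with its Gzma. In bulk RNA, fewer cells of a type and less RNA per cell cannot be told apart. Without DN2b replicate 2 the innate lymphoid calls went from 6 to 1 and the gamma-delta calls from 2 to 1. Without DN2b replicate 3 both counts were 2, without DN3 replicate 3 they were 3 and 1, and without DN3 replicate 2 they were 3 and 2.

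Mature T-cell markers gave 8 calls out of 12 tested, all lower in DN3, with a median difference of -1.59. They include Cd4, Cd8a and Cd8b1, whose values are stepped. The others among the 5 with the largest differences were Cd52 and Ccr7, a homing receptor, at 3.76, 0.1 and 0.311 FPKM against 6.20, 22.4 and 28.0 FPKM (difference -3.16, adjusted p = 0.0138). Summed over the list, the DN3 libraries held 308 to 394 FPKM and the DN2b libraries 640 to 819 FPKM. Leaving out DN2b replicate 2, DN2b replicate 3 or DN3 replicate 3 left 1, 2 and 3 calls. Without the 157 stepped genes 5 of the list were called. Against the normal DN2b libraries 1 member was called higher in DN3 and none lower. The 7 other DN2b libraries overlapped DN3 for some of these genes. They ran from the floor to 23.7 FPKM for Cd4, 27.1 FPKM for Cd8a and 37.5 FPKM for Ccr7. For Cd52 they ran from 26.9 to 91.3 FPKM, above all DN3 libraries.

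Genes of beta-selection and the double-positive stage went both ways, with 2 higher and 5 lower of 15 tested and a median difference of 0.16, or 0.012 under median-ratio scaling. The lower genes were led by Cd8b1, Cd8a, Cd4 and Trac, the constant region of the TCR alpha chain, which was 8.89 FPKM in DN3 replicate 1 and at the floor in replicates 2 and 3, against 17.2, 13.6 and 13.1 FPKM (difference -2.76, adjusted p = 0.044, or 0.051 under median-ratio scaling). Cd53, a tetraspanin and the other lower gene, and Nr4a1, which was higher, were named after their values were seen. Aqp11, a water channel, was 129, 188 and 207 FPKM in DN3 and 48.3, 25.1 and 55.0 FPKM in DN2b (difference 2.05, adjusted p = 0.00517), and Cd53 was 20.6, 19.8 and 15.3 FPKM against 56.6, 56.3 and 37.8 FPKM (difference -1.37, adjusted p = 0.0109). No member was called lower without DN2b replicate 2, 1 was without DN2b replicate 3 or DN3 replicate 3, 3 were without DN2b replicate 1, and 2 were once the stepped genes were removed.

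Receptors that place cells in tissues were lower in ex vivo DN3 in 5 of 15 tested cases, and none was higher (median difference -0.51). Itgb7, an integrin chain of gut homing, was 5.35, 4.37 and 4.29 FPKM against 18.3, 45.6 and 56.7 FPKM (difference -2.72, adjusted p = 0.00256). Its partner Itgae, the alpha chain CD103, was 7.44, 4.97 and 5.49 FPKM against 33.7, 18.9 and 19.4 FPKM (difference -1.81, adjusted p = 0.00567). Ccr4, a chemokine receptor (difference -2.88, adjusted p = 0.00292), S1pr1, the receptor used for thymic exit (difference -1.64, adjusted p = 0.00399), and Ccr7 made up the rest. Leaving out 1 library left 4 or 5 of these called, and in the August to September libraries alone 2 were. Against the normal DN2b libraries 2 members were called higher in DN3 and none lower.

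Of 11 tested genes of the fetal programme 4 fell in DN3 (median difference -0.94). Lin28b, an RNA-binding protein of fetal haematopoiesis, was 0.842, 0.1 and 0.1 FPKM in DN3 and 6.16, 5.39 and 5.17 FPKM in DN2b, a difference of -2.33 (SE 0.26, adjusted p = 0.000942). It was the single named gene called in every alternative analysis, and all 7 other DN2b libraries were above DN3, from 3.74 to 9.92 FPKM. Among the other fetal genes, the RNA-binding protein Igf2bp1 (difference -2.17, adjusted p = 0.00181), the DNA-binding factor Arid3a, at 3.83, 1.57 and 1.41 FPKM against 15.0, 14.3 and 14.8 FPKM (difference -2.34, adjusted p = 0.00191), and Igf2bp3, a relative of Igf2bp1, fell. Igf2bp3 was 15.5 FPKM in DN3 replicate 1 against 0.1 and 0.526 FPKM in the others, and its call (adjusted p = 0.049) was lost under median-ratio scaling (adjusted p = 0.059) and in 5 of the 6 fits that left out 1 library, all but that without DN3 replicate 1, with an adjusted p of up to 0.15 without DN2b replicate 2. Between 3 and 5 members were called when 1 library was left out, and 2 against the normal DN2b libraries.

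Immediate early and heat-shock genes are transcribed soon after a stimulus. Of 17 tested, 7 were higher in ex vivo DN3 and 1 lower, with a median difference of 0.68. Jun was 59.5, 62.5 and 52.9 FPKM in DN3 and 7.92, 4.03 and 5.35 FPKM in DN2b, a difference of 3.17 (SE 0.27, adjusted p = 0.000215). Fos, its partner in the AP-1 factor, was 33.0, 37.7 and 40.4 FPKM against 7.44, 8.51 and 7.45 FPKM (difference 2.11, adjusted p = 0.000875), and Junb was 72.9, 52.2 and 71.5 FPKM against 11.6, 14.1 and 14.9 FPKM (difference 2.19, adjusted p = 0.000898). All 3 DN3 libraries stood well apart from the 3 DN2b DL1 libraries for each of these AP-1 genes. They were also above the 7 other DN2b libraries, which reached 23.2 FPKM for Jun, 31.2 FPKM for Fos and 32.8 FPKM for Junb. For Fos that is close to the lowest DN3 value. Against the normal DN2b libraries no member of this list was called. Hspa1b, an inducible HSP70 chaperone, was 14.1, 7.70 and 38.0 FPKM against 0.1, 0.1 and 1.46 FPKM (difference 3.58, adjusted p = 0.00317). It has a near-identical neighbour, Hspa1a, with which reads may be shared, so the value is uncertain for the single gene. Fosb (difference 1.60, adjusted p = 0.0305; not called without DN3 replicate 1, DN2b replicate 2 or DN2b replicate 3, adjusted p up to 0.108) also rose. Dusp1, a phosphatase of the same response (difference 1.17, adjusted p = 0.016), the nuclear receptor Nr4a1 (1.21, adjusted p = 0.0271) and the lower Ier3 (-1.21, adjusted p = 0.0487) were named after their values were seen. Dnajb1 (-0.09), Ier2 (-0.18) and Jund (0.24) were not called. Between 4 and 9 members were called higher when 1 library was left out, 4 without DN3 replicate 1, DN2b replicate 2 or DN2b replicate 3. The call of Ier3 was lost under median-ratio scaling and in 5 of the 6 fits that left out 1 library.

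**Figure D4:**
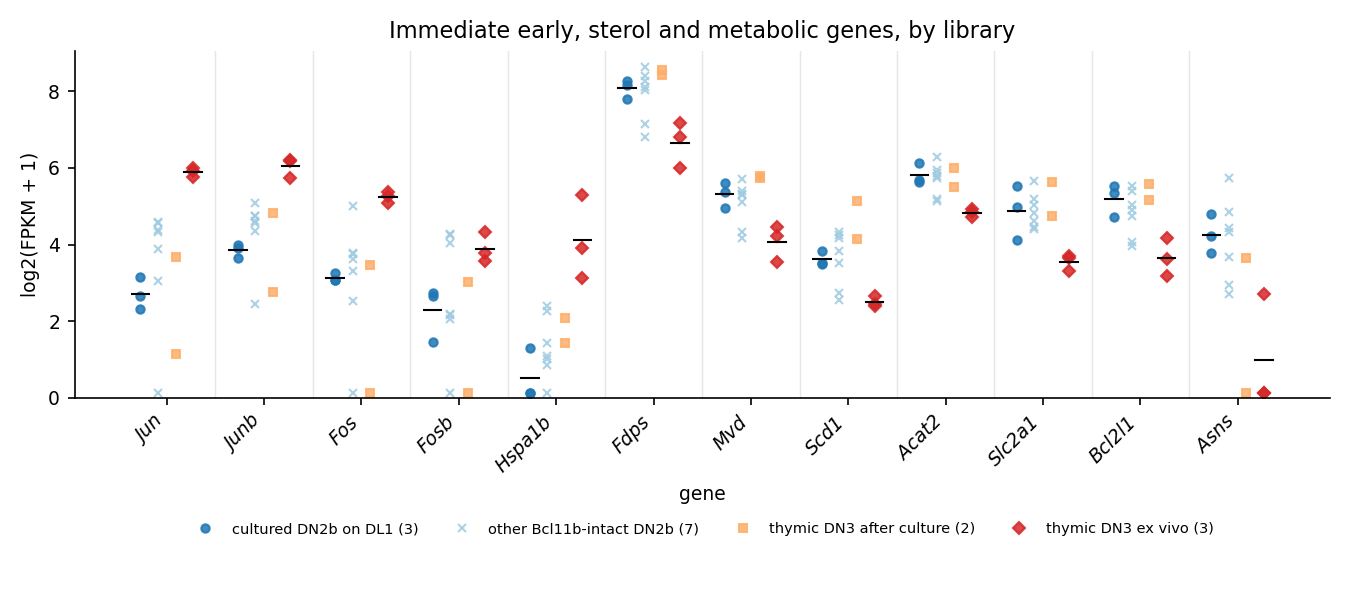
Immediate early, heat-shock, sterol and metabolic genes in single libraries, as log2(FPKM + 1); each symbol is 1 library and black bars are means of the 3 cultured DN2b DL1 (blue) and 3 ex vivo DN3 libraries (red). Jun, Junb, Fos, Fosb and Hspa1b are higher in ex vivo DN3 than in cultured DN3 (orange squares) and DN2b DL1, and Fdps, Mvd, Scd1, Acat2, Slc2a1 and Bcl2l1 are lower than in both.

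Cholesterol synthesis and uptake leaned the other way. Of 26 tested genes 24 had a negative difference, with a median of -0.48, and 5 were called, all lower in DN3. Fdps, which makes farnesyl diphosphate, was 112, 62.4 and 142 FPKM in DN3 and 222, 285 and 303 FPKM in DN2b (difference -1.42, adjusted p = 0.0288). Mvd, an earlier step of the mevalonate pathway, was 17.6, 10.7 and 21.1 FPKM against 30.1, 40.4 and 47.6 FPKM (difference -1.23, adjusted p = 0.0351). Sc4mol, a sterol methyl oxidase, Scd1, the stearoyl-CoA desaturase, and Acat2, a cytosolic thiolase, fell by 1.20, 1.13 and 0.98 on the log2 scale, with adjusted p-values of 0.0483, 0.0236 and 0.0326. The single-gene calls were not firm, since none was made without DN3 replicate 2 or DN2b replicate 2, 1 was without DN3 replicate 1 or DN2b replicate 3, and 2 without DN3 replicate 3. The title-period covariate left 1.

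Other metabolic lists had few calls. Of 23 genes of glycolysis and the hypoxia response 2 fell (median difference -0.58). That is 8.7% called, beside 6.37% of all tested genes. They were Slc2a1, the glucose transporter GLUT1, at 11.4, 12.0 and 8.88 FPKM against 16.3, 30.8 and 45.4 FPKM (adjusted p = 0.0493), and Egln3, a prolyl hydroxylase (adjusted p = 0.0295). Each was called in only 1 of the 6 fits that left out 1 library, that without DN2b replicate 1. The highest adjusted p-values, 0.159 and 0.137, came without DN2b replicate 2. Neither was called with the period covariate, and Slc2a1 was not called under median-ratio scaling (adjusted p = 0.063). Of 17 genes of amino acid stress and the unfolded protein response, Asns, the asparagine synthetase, was 5.55, 0.1 and 0.1 FPKM against 12.7, 26.6 and 17.5 FPKM (difference -3.26, adjusted p = 0.0119). Trib3, a pseudokinase of the same response, fell by 2.43 (adjusted p = 0.012), and neither of these was called without DN2b replicate 2 or 3. The listed genes for the cell cycle and replication gave no call among 26 with limma, with 1 at an unadjusted p under 0.05. There were also 0 calls in each fit that left out 1 library, and 1 lower gene under quantile normalization or median-ratio scaling. Mki67, a proliferation marker, was 111, 114 and 51.9 FPKM in DN3 and 117, 80.9 and 46.7 FPKM in DN2b, and Pcna and Mcm7 had differences of 0.16 and 0.12, which turned to -0.016 and -0.048 under median-ratio scaling.

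Of 17 cytokine receptors and response genes 1 rose and 1 fell (11.8% called, beside 6.37% of all tested genes). Il17rb, a receptor for IL-25, was 51.7, 98.4 and 65.0 FPKM in DN3 and 34.9, 33.0 and 27.6 FPKM in DN2b (difference 1.10, adjusted p = 0.0396; 0.143 without DN3 replicate 2 and 0.062 under median-ratio scaling). Socs2, a feedback inhibitor induced by STAT5, was 15.8, 14.6 and 11.1 FPKM against 28.3, 70.0 and 38.2 FPKM (difference -1.56, adjusted p = 0.02; 0.0693 without DN2b replicate 2). Neither was called without DN3 replicate 3, DN2b replicate 2 or DN2b replicate 3, and against normal DN2b their differences turned to -0.058 and 0.27. Il7r, the receptor for the IL-7 in the cultures, was 40.1, 50.2 and 30.4 FPKM against 46.3, 22.4 and 15.1 FPKM (difference 0.63, adjusted p = 0.404). In the Bcl2 family 2 of 11 genes fell: Bcl2l1, which encodes the survival protein Bcl-xL, at 17.1, 8.01 and 11.3 FPKM against 25.5, 44.7 and 39.3 FPKM (adjusted p = 0.0192; 0.0845 without DN2b replicate 2), and Pmaip1, which encodes the pro-death protein Noxa (adjusted p = 0.0247; 0.106 without DN3 replicate 3). Each of these 2 was called in 2 of the 6 fits that left out 1 library.

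Of 25 interferon-induced genes 3 rose and 1 fell, with a median of 0.24. Oas1a was 6.45, 2.73 and 9.30 FPKM in DN3 and 0.702, 1.14 and 0.921 FPKM in DN2b (difference 1.79, adjusted p = 0.014; 0.0609 without DN2b replicate 3). Xaf1, a pro-apoptotic factor, rose by 1.32 (adjusted p = 0.0252; 0.112 without DN2b replicate 2, and called in 1 of the 6 fits that left out 1 library), and Ifi44 rose by 1.25 from levels under 0.4 FPKM (adjusted p = 0.00385). The nuclease Isg20 fell by 1.29 (adjusted p = 0.0243; 0.104 without DN2b replicate 2, and lost also without DN3 replicate 2 or DN2b replicate 3). Of 15 entries for MHC class I presentation 1 was called (6.67%, beside 6.37% of all tested genes). The gene was H2-Q7, a nonclassical class I gene with close paralogs that could share reads (difference 1.55, adjusted p = 0.0303). Its adjusted p was 0.1 without DN3 replicate 1, and it was called in 2 of the 6 fits that left out 1 library.

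Some markers of cells that the sorts should leave out were present. Of 10 tested myeloid and dendritic markers 2 rose and 1 fell. Lyz2, the lysozyme of macrophages, was 8.59, 13.0 and 15.2 FPKM in DN3 and 0.6, 0.348 and 1.63 FPKM in DN2b (difference 2.86, adjusted p = 0.000944), and the class II gene H2-Ab1 was 7.60, 8.64 and 11.7 FPKM against 0.1, 0.529 and 1.16 FPKM (difference 2.73, adjusted p = 0.000898). The neutrophil-precursor gene Mpo fell by 2.50 (adjusted p = 0.0131; 0.0516 without DN2b replicate 2). Summed over the list, DN3 held 34.8 to 49.8 FPKM and DN2b 24.6 to 36.8 FPKM. Of 5 tested entries for thymic epithelium 3 rose: Epcam, a surface adhesion protein that some thymocytes also carry, at 23.8, 28.4 and 32.2 FPKM against 12.3, 13.9 and 10.2 FPKM (adjusted p = 0.02), Cldn4, a tight-junction protein (difference 1.27, adjusted p = 0.0272), and Aire, the tolerance factor of medullary epithelium (difference 0.86, adjusted p = 0.0383, or 0.062 under median-ratio scaling). None of these 3 was called without DN3 replicate 3, DN2b replicate 2 or DN2b replicate 3. The keratin genes Krt8 and Krt18 did not reach 1 FPKM in any of the 6 libraries, and the list summed to 38.9 to 52.1 FPKM in DN3 and 21.2 to 24.4 FPKM in DN2b. Of 5 B-cell markers, Cd79b, a B-cell receptor chain, rose by 1.52 (adjusted p = 0.0198; 0.0775 without DN2b replicate 2), and the call was lost under median-ratio scaling (adjusted p = 0.0622) and without DN3 replicate 3. The list summed to 82.4 to 201 FPKM in DN3 and 65.7 to 73.1 FPKM in DN2b. Most of that was Ighm, the immunoglobulin mu chain gene, at 111, 45.8 and 152 FPKM against 46.2, 45.3 and 39.8 FPKM (adjusted p = 0.152, not called). Of 6 erythroid markers, Gata1 fell by 1.70 (adjusted p = 0.0121; 0.056 without DN2b replicate 3), and the sums overlapped, at 10.3 to 70.2 FPKM and 37.2 to 154 FPKM. The beta-globin gene Hbb-b2 was 0.1, 7.15 and 7.38 FPKM in DN3 and 9.94, 123 and 124 FPKM in DN2b (adjusted p = 0.0505, not called); it and Ighm were named after their values were seen. Of 9 tested stromal markers none was called with limma, while 7 had an unadjusted p under 0.05, all lower in DN3, and their median difference was -1.52. The stromal sum was 7.55 to 14.0 FPKM in DN3 and 58.0, 16.99 and 59.1 FPKM in DN2b, whose cells grew on OP9 stroma. Leaving out DN2b replicate 2, the lowest of them, gave 5 stromal calls, all lower in DN3. The collagen gene Col6a1 was 12.1, 1.18 and 12.9 FPKM in DN2b and 1.53, 0.1 and 0.1 FPKM in DN3. The part of these cells in the other results was not tested. Sex-linked genes gave 0 calls among 5 with limma, and 0 at an unadjusted p under 0.05.

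**Figure D5:**
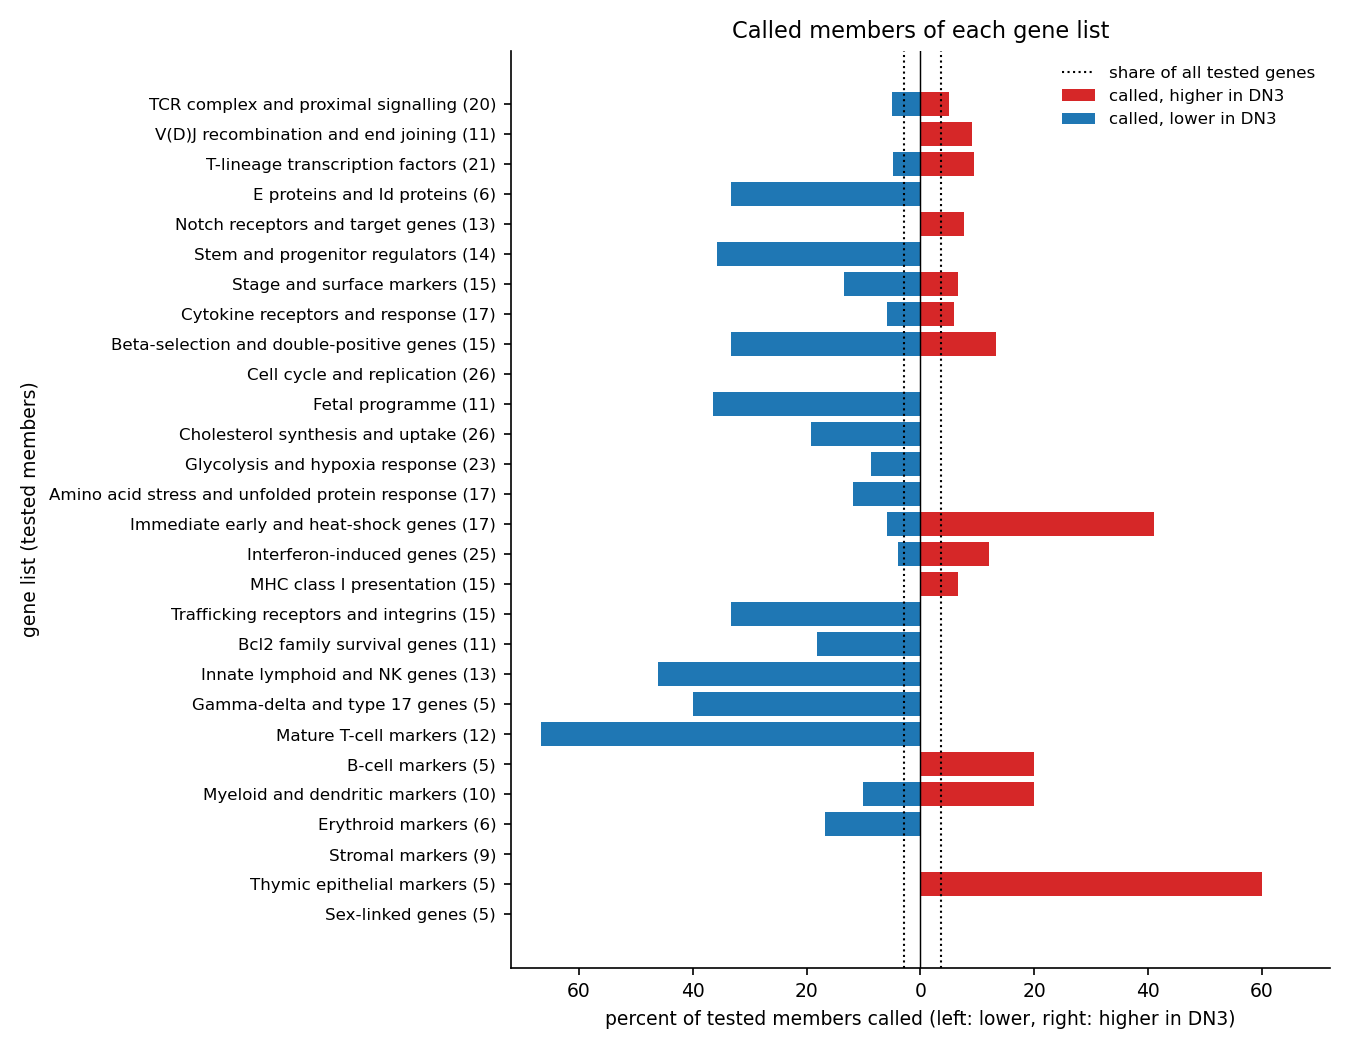
Share of tested members called lower (blue, left) and higher (red, right) in ex vivo DN3 for each of 28 gene lists, in percent, with the number of tested entries after each name. Dotted lines mark the shares of all tested genes, 2.82% lower and 3.56% higher; short lists give coarse shares, and mature T-cell and thymic epithelial markers have the longest bars.

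Thymic DN3 cells that had been cultured gave a second set of values beside these. In them 250 of 13372 tested genes (1.87%) were called against the DN2b libraries, 136 higher and 114 lower, with a median of -0.05. Both comparisons use the DN2b libraries, and the difference between them was not tested. Leaving out DN2b replicate 2 gave 65 calls, leaving out DN2b replicate 3 gave 117, and leaving out cultured DN3 replicate 1 gave 499, where the lone cultured library is assumed to vary like the DN2b group. Some genes were called in both. Dntt was 601 and 763 FPKM after culture (difference 6.68, adjusted p = 0.0105), Hivep3 was 21.0 and 27.0 FPKM (adjusted p = 0.0146), Galnt6 was 15.4 and 31.0 FPKM (adjusted p = 0.00417), and H2-Ab1 was 9.88 and 7.58 FPKM (adjusted p = 0.00698). Among lower genes, Cd163l1 was 21.6 and 28.6 FPKM (adjusted p = 0.00452), Nkg7 38.4 and 20.8 FPKM (adjusted p = 0.00912), Itgae 5.32 and 5.42 FPKM (adjusted p = 0.0204) and Lin28b 1.88 and 0.1 FPKM (adjusted p = 0.0401).

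Other genes called ex vivo were not called once DN3 cells had been cultured. The 2 cultured libraries lay on either side of the DN2b values for Jun, Fos and Junb and below all ex vivo values. Jun was 11.7 and 1.21 FPKM, Fos 10.1 and 0.1 FPKM, and Junb 27.3 and 5.73 FPKM. Fdps was 377 and 344 FPKM, Mvd 52.4 and 54.1 FPKM, Slc2a1 25.6 and 48.7 FPKM, and Bcl2l1 35.1 and 46.4 FPKM, all above the 3 ex vivo libraries. The median difference of the cholesterol genes was 0.12 after culture, beside -0.48 ex vivo. Of 12 tested Notch receptors and targets none was called after 3 or 4 days on DL4. Hes1 was 14.7 FPKM and the floor against 53.7 to 69.9 FPKM ex vivo, and Notch3 was 28.4 and 25.1 FPKM against 76.0 to 106 FPKM, while Nrarp was 16.98 and 1.63 FPKM against 5.44 FPKM and the floor in the other 2. The cultured libraries themselves disagreed for progenitor genes. Cd34 was 14.0 FPKM and the floor, Lyl1 9.78 FPKM and the floor, and Spi1 10.4 FPKM and the floor, the higher value being the day 3 library each time.

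The day 4 cultured library and ex vivo DN3 replicate 3 carry the same line name in their titles. Set side by side, with 1 library each and no test, the median log2 difference of ex vivo minus cultured over all tested genes was 0.08. It was -1.54 over 23 glycolysis and hypoxia genes, all of them lower ex vivo, and -0.85 over 26 cholesterol genes, of which 1 was higher ex vivo. It was 1.25 over 17 immediate early and heat-shock genes, 13 of them higher ex vivo, 0.92 over 25 interferon-induced genes, and -0.73 over 26 genes of the cell cycle, of which 3 were higher ex vivo. For recombination genes it was -0.10 and for the TCR complex 0.03.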

How the data were processed

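Total RNA was extracted with Trizol, selected on oligo-dT beads and made into randomly primed libraries, per the labels' protocols, which list no step that marks strand. The counts of overlapping genes on opposite strands may thus be mixed. The authors deposited FPKM values, which the file name calls merged and ComBat-adjusted; the submitters' processing notes name build mm9. Neither the quantification tool nor the batches are given in the sources used, so the adjustment could have moved differences in either direction. Another 16 columns fit no sample here and were left out. The table holds 17754 entries, and 92 repeat a symbol; Sox4, Psmb9 and Ccl25 count as 2 entries each in their lists.

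Genes at 1 FPKM or more in at least 3 of the 6 libraries (2 of 5 with the cultured DN3 libraries) entered a linear model in limma 3.58.1 (R 4.3.3) on log2(FPKM + 1), with a mean-variance trend and Benjamini-Hochberg adjustment over all tested genes, which is called at 0.05. The pseudocount understates differences of low genes. The procedure was also run on simulated data with independent noise for each gene. Those data held no batch adjustment and no stepped values, so they do not show how such features affect the calls. Named are 27 fixed genes, the 12 most positive and 12 most negative called genes with a mean of 5 FPKM or more and no overlap (small RNAs, receptor segments, pseudogenes and predicted genes excluded), and up to 5 called members of each of 28 lists, some of which share genes, or the 2 most abundant where none was called. Members and lists were chosen with earlier results of these data known, and 1 gene was later taken out of the lists and is not reported here. Promoters come from RefSeq (GRCm38.p6) and were found for 77 of 109 named genes by symbol; no file coordinates were used. Alternatives were other pseudocounts, filters, scalings, variance models, references, a period covariate and leaving out each library.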

Additional observations from a re-analysis of the deposited data

How the results depend on the processing

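No paired analysis was possible because the titles of the thymic libraries carry no replicate numbers that match those of the fetal liver cultures. Ex vivo DN3 against DN2b gave 837 calls. There were 424 at a filter of 5 FPKM, where fewer genes were tested, 1605 with all 47 libraries in the fit, 1519 against DN2b on DL4, 1766 against DN2b on DL1 or DL4, and 33 against normal DN2b, of which 15 were among the 837. The 4 August to September libraries, an alternative added after the data were seen, gave 181. Leaving out 1 library gave 361 to 1132. Cultured DN3 gave 250 calls, and 117 at a pseudocount of 0.1, 68 without a filter, 633 with all 47 libraries and 65 to 499 when 1 library was left out. The causes were not tested. Removing the stepped genes, also added later, left 821. Of the 83 named genes called, 80 kept their sign in every alternative and 1, Lin28b, was called in every one. Against normal DN2b the sign turned for Il17rb (-0.058), Socs2 (0.27) and Zbtb16 (0.64), and among genes not called for Dtx1 (-0.25), Gata3 (0.26), Hes1 (-0.16), Id3 (0.64), Il7r (-0.047), Mki67 (-0.19), Notch1 (-0.016) and Xist (-0.24). Id3 also turned against DN2b on DL4 (0.66). Median-ratio scaling turned Mcm7 (-0.048) and Pcna (-0.016), and the August to September libraries turned Mcm7 (-0.025), Mki67 (-0.34) and Pcna (-0.14). Leaving out 1 library moved Eif2s3y between -1.12 and 0.42, Gata3 between -0.15 and 0.12, Mki67 between -0.17 and 0.55 and Pcna between -0.026 and 0.31.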
